A study of Mus musculus with 9 samples.

Results

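The 5 microarrays of irradiated mouse lung were examined against each other, by how far each gene differed between them and by which groups of genes differed on the same array. They were the arrays labelled Irradiated 1 to Irradiated 5, which is 5 of the 9 arrays of the series, and the other 4 carried unirradiated control lung. All 9 were made from RNA of the lung of male C57BL/6 mice with a stated age of 10 weeks. The study gives this age for the mice it housed, and took irradiated tissue at later times. The irradiated samples were left lung tissue, the mice being irradiated under anaesthesia with 30 mg/kg zoletil and 10 mg/kg rompun. The labels state that the RNA was pooled, and by the study's methods each pool came from triplicate experiments at a time point. The study used a focal dose to a small lung region, a lower dose to a larger region and several times after exposure, but the labels give no dose, region or time for these 5 arrays, so each array can stand for a different condition, and differences between conditions, pools and dissections cannot be told apart. No p-value was computed, because no groups were compared.

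A lung lobe is a mixed tissue. Besides alveolar epithelium, airways and vessels, a dissected mouse lobe can carry cardiac-type muscle, which in rodents lines the wall of the pulmonary veins, as well as fat, mesothelium and lymphoid tissue from around the hilum. Its cells also hold a circadian clock, in which the activators Bmal1 (listed as Arntl) and Clock drive their own repressors, so that levels depend on the time of day at which tissue is taken. In RNA of a whole tissue, fewer cells of a type and less RNA per cell cannot be told apart.

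Each array measured 39429 gene probes in a single colour, and the values are log2 intensities after quantile normalization over the 5 arrays. A gene was represented by its brightest probe and kept if that probe was well above background on all 5 arrays, which held for 15433 of 19751 genes (78.1%). A further 2732 genes were well above background on 1 to 4 arrays. Of these, 1341 were so only on Irradiated 4, where the scanner software called 89.1% of the spots well above background, against 72.9% to 76.8% on the other 4, and 350 were missed only on Irradiated 1. The median local background was 24 and 25.5 intensity units on Irradiated 5 and 2 and 34.5 to 45 on Irradiated 1, 3 and 4, and no gene was split by at least 1 log2 unit between these sets of arrays. Markers of lung were present on all 5 arrays. Sftpc, which encodes surfactant protein C of type II alveolar cells, was at 19.29, 19.35, 19.29, 19.35 and 19.35 on Irradiated 1 to 5, and Scgb1a1, the secretoglobin of club cells, at 19.10, 19.10, 19.09, 19.08 and 19.03. These lie at the top of the scale, where quantile normalization holds values nearly fixed, so that their small spread says little about stability. Ager and Aqp5 of type I alveolar cells, Foxj1 of ciliated cells and the endothelial genes Cdh5 and Pecam1 were well above background on all 5 arrays, with ranges of 14.95 to 15.64, 15.68 to 16.15, 13.09 to 14.08, 13.94 to 14.80 and 11.54 to 11.99.

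Most genes differed little. The median SD over the 5 arrays was 0.22 on the log2 scale, which is a factor of 1.16, and 7056 genes (45.7%) stayed within a range of 0.5 log2 units. The SD was at least 1 for 197 genes, 1.28% of all genes kept, with Serpina3f just inside this limit at 1.00 and Socs3 just outside it at 1.00 (0.998 before rounding). The 4 control arrays, processed in the same way, had a median SD of 0.22 and 166 genes with an SD of at least 1. Over the 15242 genes kept in both sets, 185 had such an SD among the irradiated arrays and 141 among the controls, and 38 genes were in both lists, which is 20.5% of the first and 27.0% of the second. Most genes of each list thus had an SD under 1 in the other set, in both directions. As each list was picked by its SD in its own set, this says nothing particular about the irradiated arrays.

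Irradiated 1 carried the most variation. It accounted for 33.8% of the summed squared deviations from the gene means, against 14.7% to 19.7% for each of the other 4 arrays. Of the 197 genes, 133 were lowest on Irradiated 1 and 17 were highest there. A gene was called set apart if its value on an array lay at least 1 log2 unit, a factor of 2, above or below all 4 others. On Irradiated 1, 181 genes (1.17%) were set apart below and 56 (0.363%) above. The counts above and below were 53 (0.343%) and 4 (0.0259%) on Irradiated 2, 22 (0.143%) and 14 (0.0907%) on Irradiated 3, 36 (0.233%) and 12 (0.0778%) on Irradiated 4, and 10 (0.0648%) and 31 (0.201%) on Irradiated 5. These balances depend in part on the normalization. In the authors' normalized table, 3 genes were above on Irradiated 1, 1 was above and 31 below on Irradiated 4, and 12 were above and 1 below on Irradiated 5. The genes below on Irradiated 1 were dim about as often as all genes kept. A gene was called dim if its mean was at most 8.205, the upper limit of the dimmest 1 in 5 of all genes kept. Of the 181, 34 (18.8%) were dim. In contrast, all 12 genes below on Irradiated 4 and 39 of the 56 above on Irradiated 1 lay below that limit. Without Irradiated 1, 101 of all 15433 genes kept had an SD of at least 1 over the other 4 arrays, and 83 of the 197 were among them.

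**Figure D1:**
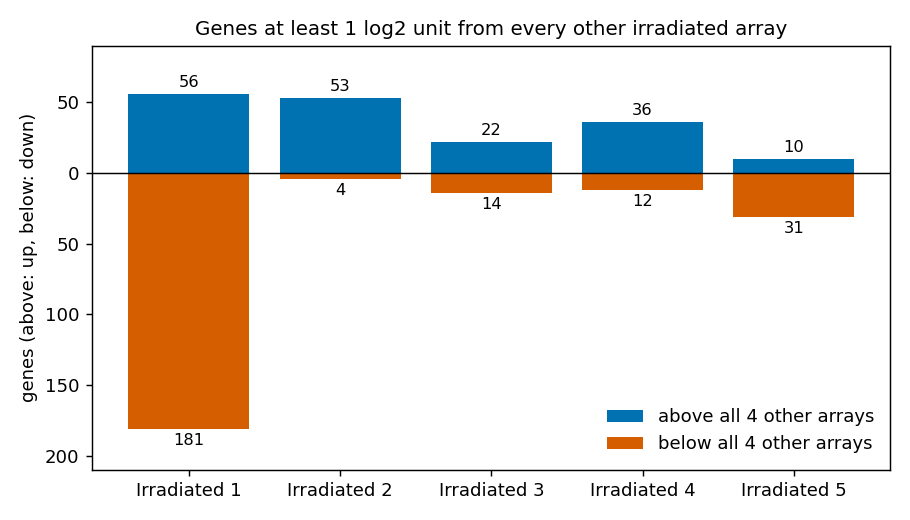
Number of genes (vertical axis) set apart by at least 1 log2 unit above (blue, up) or below (orange, down) all 4 other irradiated arrays, for each array. The 181 genes below on Irradiated 1 form the tallest bar, and Irradiated 2 had 53 genes above and 4 below.

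The spread between arrays was larger than that between spots. For 322 probes printed on at least 5 spots and well above background on all arrays, the median SD between arrays was 0.22, against 0.05 between spots of the same array, and it was the larger for 315 of them. A further probe of the same gene was available for 4057 genes. It placed the same array farthest from the rest in 31.6% of them, and in 18 of the 23 such genes with an SD of at least 1 (78.3%), but its own SD was at least 1 in only 7 of these 23.

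Genes were then grouped in lists by cell type or function, and a list is described by the mean deviation of its kept genes from their own mean over the 5 arrays. Over all genes kept, 18.4% were lowest and 32.9% highest on Irradiated 1, 14.7% were highest on Irradiated 2, 17.2% highest on Irradiated 3, 18.9% highest on Irradiated 5, 27.8% lowest on Irradiated 4 and 17.9% lowest on Irradiated 5. Of 43 lists, 20 had Irradiated 1 as the array farthest from the other 4. The SD of the list mean was larger than among the control arrays in 25 of the 43 lists. The skeletal muscle list was one of the exceptions, with an SD of 0.22 among the irradiated and 1.21 among the control arrays. The first value covers only 22 of its 31 genes, those kept. Of the genes left out, Myl1 was at least 48.3-fold and Ckm at least 11.2-fold higher on the mean of Irradiated 2 to 5 than on Irradiated 1. These lower bounds were set as for the cardiac muscle list below, and those of the other genes left out were smaller.

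**Figure D2:**
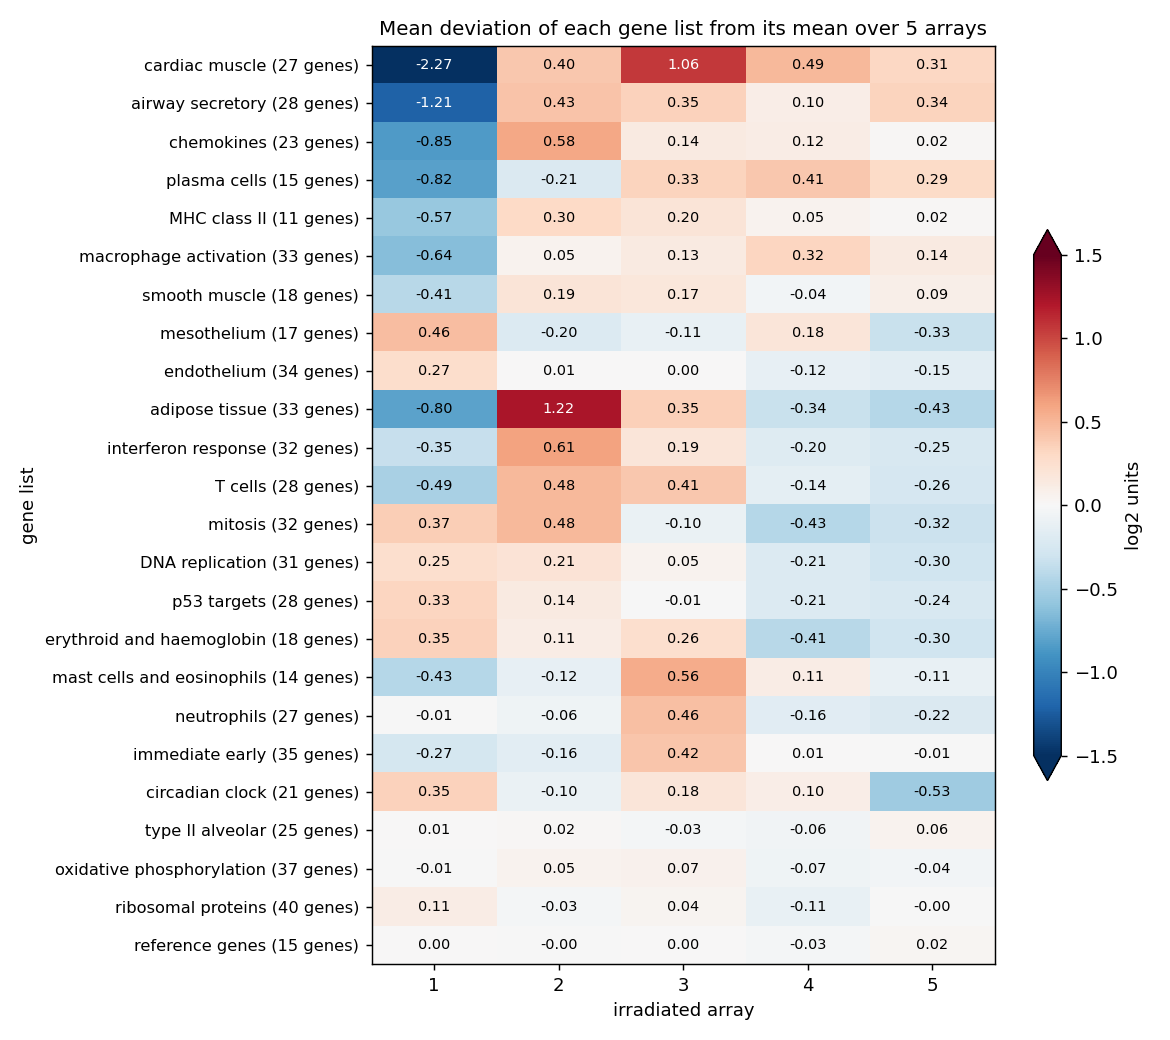
Mean deviation in log2 units (colour and printed value) of 24 gene lists (rows, with the number of genes kept) on each irradiated array (columns). The cardiac muscle list was at -2.27 on Irradiated 1 and the adipose tissue list at 1.22 on Irradiated 2, while ribosomal protein and oxidative phosphorylation genes stayed within 0.12 of 0.

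The cardiac muscle list was the most variable. Its deviation was -2.27 on Irradiated 1 and 0.40, 1.06, 0.49 and 0.31 on Irradiated 2 to 5. Of its 38 genes, 37 were on the array and 27 were kept. Of the 27, 22 were set apart below on Irradiated 1 and 22 were highest on Irradiated 3. Myh6, which encodes the alpha myosin heavy chain of atrial muscle, was at 7.28 on Irradiated 1 and at 16.02, 16.70, 16.35 and 16.30 on Irradiated 2 to 5. This was the largest SD of all genes kept (4.06), and Irradiated 1 lay 428-fold below the nearest array. Nppa, encoding atrial natriuretic peptide, was at 6.75, 13.04, 14.18, 13.36 and 12.11 (SD 2.97). Myl7, the atrial regulatory light chain, was at 6.80, 13.13, 13.96, 12.86 and 13.26 (SD 2.93). Irradiated 1 was far below the other arrays for these atrial genes, and the other 4 lay much closer to each other.

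Irradiated 1 was also lowest for genes of the contractile apparatus. Tnnt2, the cardiac troponin T, was at 10.08, 14.14, 14.95, 14.47 and 14.51 (SD 2.00), and Ttn, which encodes the giant spring protein titin, at 6.58, 10.55, 11.80, 10.93 and 10.66 (SD 2.03). Myl4, an atrial essential light chain, was at 11.41, 15.65, 16.51, 15.75 and 15.78 (SD 2.05). Actc1, the cardiac alpha actin, was less far below, at 13.28, 15.63, 15.997, 15.68 and 15.42 (SD 1.09). Other sarcomere genes among the 30 with the largest SD were Myom2 (SD 2.23) and Mybpc3 (SD 2.05) of the thick filament, Myoz2 (SD 2.05) of the Z-disc, Myl3 (SD 2.03), Myh8 (SD 1.93), a myosin of developing muscle, and Tnni3 (SD 1.83), the cardiac troponin I, each lowest on Irradiated 1. A second probe of Ttn and of Fabp3 also placed Irradiated 1 lowest.

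For 10 further genes of the list, the probe was well above background on Irradiated 2 to 5 and not on Irradiated 1, so that their difference is only bounded. With Irradiated 1 set at the higher of its value and the lowest signal called well above background there, Sln (sarcolipin, an inhibitor of the calcium pump) was at least 644-fold, Mb (myoglobin) at least 377-fold, Ckmt2 (a mitochondrial creatine kinase) at least 138-fold and Csrp3 (a Z-disc protein) at least 62.5-fold higher on the mean of the other 4 arrays. The bounds of the remaining genes were smaller, among them 6.53-fold for Trim63 and 4.25-fold for Corin. For Kcnj3 the lower bound was 0.92-fold, which is too low to tell whether this gene differed. Not all genes of the list went this way. Myh7, the beta myosin heavy chain, was highest on Irradiated 1, at 12.48 against 10.64, 10.50, 10.43 and 10.92 (SD 0.85), and Gja5, a gap junction gene that arterial endothelium also expresses, was at 12.27, 11.57, 11.52, 11.57 and 11.90 (SD 0.32). On the control arrays the range of Myh6 was 15.87 to 16.98, after normalization over all 9 arrays, and the SD of the list mean was 0.31, against 1.30 among the irradiated arrays.

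The promoters of Actc1 and Myl7 are shown because both genes varied with this list and their windows hold a CArG box, the site of serum response factor in muscle genes, here in capitals. The windows run from 250 bases before to 50 after the start of the gene in RefSeq's annotation of GRCm38.p6, on the minus strand of chr2:114052826-114053125 for Actc1 and of chr11:5898733-5899032 for Myl7. The search covered both strands. Of 24 kept genes of the list with a promoter in the table, 5 held a CArG box in this window, and 1.63% of all 32851 promoters did. A gene was counted if any of its windows held the box, but promoters were counted singly, so that these shares differ in unit. The windows of Myh6 and Nppa held no CArG box.
Actc1: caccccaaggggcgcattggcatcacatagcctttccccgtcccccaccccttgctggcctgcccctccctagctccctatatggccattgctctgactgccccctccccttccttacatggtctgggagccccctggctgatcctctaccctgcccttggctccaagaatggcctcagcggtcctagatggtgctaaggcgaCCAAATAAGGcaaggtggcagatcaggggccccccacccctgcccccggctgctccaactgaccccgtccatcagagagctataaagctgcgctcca
Myl7: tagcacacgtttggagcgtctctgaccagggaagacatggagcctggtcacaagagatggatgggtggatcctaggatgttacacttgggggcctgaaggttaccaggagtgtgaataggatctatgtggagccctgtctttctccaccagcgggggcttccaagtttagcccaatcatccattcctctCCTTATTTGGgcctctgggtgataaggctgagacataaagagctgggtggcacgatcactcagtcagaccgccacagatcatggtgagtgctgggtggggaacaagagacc

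Genes of airway secretory cells made up the next large group on Irradiated 1. The list was at -1.21 on Irradiated 1 and 0.43, 0.35, 0.10 and 0.34 on the others. Of 28 genes kept, 11 were set apart below on Irradiated 1 and 7 were highest there, and the difference from the other 4 arrays was -1.52 in the list mean but -0.73 in the list median. Clca1, a mucus-associated gene of goblet cells, was at 6.10, 15.84, 13.96, 11.18 and 15.17 (SD 3.97), and it also varied among the control arrays (SD 3.08). Bpifa1, which encodes an abundant defence protein of the upper airways, was at 10.09, 14.57, 15.21, 15.62 and 15.55 (SD 2.34). Reg3g, an antibacterial lectin, was at 10.22, 15.22, 15.03, 14.70 and 14.38 (SD 2.09). Irradiated 1 lay far below the other arrays for all 3, and only Clca1 was spread among the other 4 as well.

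The secreted mucin gene Muc5b was at 11.81, 15.05, 15.03, 14.60 and 14.97 (SD 1.40), and Scgb3a1, a secretoglobin of the large airways, at 13.28, 16.26, 16.90, 16.36 and 16.69 (SD 1.49). Bpifb1 was at 10.60, 14.84, 14.74, 13.99 and 14.38 (SD 1.77), and Itln1, encoding the lectin intelectin, at 5.86, 9.52, 10.63, 10.32 and 9.56 (SD 1.91). Cyp2f2, which encodes a cytochrome P450 of club cells, did not share this pattern and was at 18.08, 17.63, 17.52, 17.65 and 17.97 (SD 0.24), highest on Irradiated 1. The list as written also holds Kdr, an endothelial gene. Genes of motile cilia did not share the pattern either. The list was at -0.02, -0.17, 0.05, -0.10 and 0.24, with 6 of 36 genes lowest on Irradiated 1 and 22 highest on Irradiated 5.

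**Figure D3:**
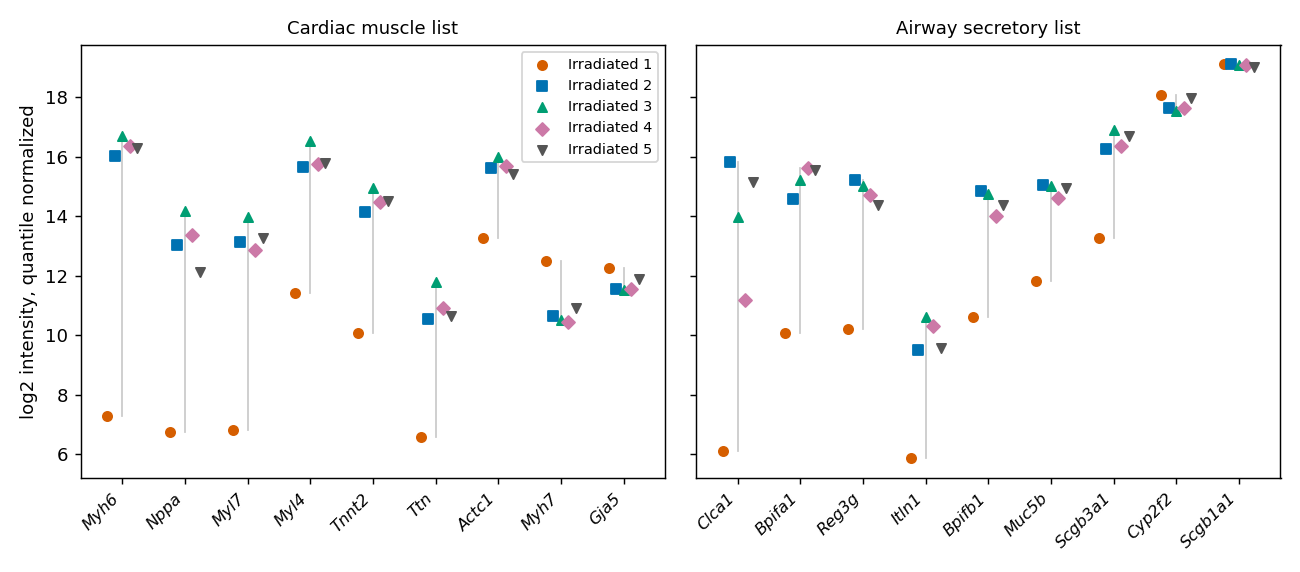
Log2 intensity (vertical axis) of 9 cardiac muscle genes and 9 airway secretory genes on the 5 irradiated arrays (colours and symbols), with a grey line over the range of each gene. Irradiated 1 lies far below the others for Myh6 (7.28) and Bpifa1 (10.09), is highest for Myh7 (12.48), and lies with the others for Scgb1a1 (19.10) at the top of the scale.

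Some of the immune lists were low on Irradiated 1, while others were not, with alveolar macrophage genes at 0.11, neutrophil genes at -0.01 and NK and cytotoxic genes at -0.12. The chemokine list was at -0.85 there and at 0.58, 0.14, 0.12 and 0.02 on Irradiated 2 to 5, with 7 of 23 genes set apart below. The difference of Irradiated 1 from the other 4 arrays was -1.06 in the list mean and -0.64 in the list median. Cxcl13, which attracts B cells to lymphoid follicles, was at 8.33, 12.57, 11.92, 12.32 and 11.22 (SD 1.72), Ccl8 at 11.54, 14.85, 14.61, 14.43 and 13.71 (SD 1.35) and the monocyte chemokine Ccl2 at 9.62, 12.40, 11.63, 11.74 and 12.40 (SD 1.14). Ccl6 did not vary in this way, at 16.32, 16.03, 16.22, 16.55 and 16.22. The MHC class II list was at -0.57 on Irradiated 1, where 10 of 11 genes were lowest. H2-Ab1, the beta chain of the I-A molecule, was at 16.97, 18.06, 17.90, 17.86 and 17.83 (SD 0.43). In the macrophage activation list, at -0.64 on Irradiated 1, 27 of 33 genes were lowest there. Il6, encoding interleukin 6, was at 6.95, 9.47, 10.45, 10.45 and 10.31 (SD 1.497), and Lrg1, a leucine-rich glycoprotein gene, at 13.70, 15.78, 15.94, 15.90 and 15.97 (SD 0.98). For both, Irradiated 1 was set apart below.

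The plasma cell list was at -0.82, -0.21, 0.33, 0.41 and 0.29. A few genes carried this mean, as 4 of 15 were set apart below on Irradiated 1, and Irradiated 1 differed from the other 4 arrays by -1.02 in the list mean but by -0.32 in the list median. Jchain, which joins secreted IgA and IgM, was at 10.12, 14.06, 16.27, 16.86 and 16.56 (SD 2.83), and Mzb1, an endoplasmic reticulum protein of antibody-secreting cells, at 9.83, 10.996, 12.21, 12.13 and 12.14 (SD 1.04). Xbp1, a factor that other secretory cells also express, was at 15.64, 15.86, 15.86, 15.95 and 15.99 (SD 0.13). The liver list was at -0.78, 0.18, 0.26, 0.09 and 0.24, with 10 of 19 genes lowest on Irradiated 1 and 3 set apart below. Single genes weighed on this mean. On Irradiated 1, Fgg was at 6.28 against its own mean of 11.28 and Kng1, also of this list, at 8.26 against 11.25. Fgg, the gamma chain of fibrinogen, was at 6.28, 11.01, 13.15, 12.92 and 13.03 (SD 2.93), and Gp2, a glycoprotein of pancreas and of the M cells over mucosal lymphoid tissue, at 7.52, 12.60, 14.14, 13.69 and 13.53 (SD 2.73). A second probe of Gp2 gave 6.15, 10.20, 11.54, 11.50 and 11.20. For Jchain, Mzb1, Fgg and Gp2, Irradiated 1 was lowest, Irradiated 2 next and Irradiated 3, 4 and 5 lay close together.

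Other genes were higher on Irradiated 1. The mesothelium list was at 0.46 there and at -0.20, -0.11, 0.18 and -0.33 on the others, with 11 of 17 genes highest on Irradiated 1. Upk3b, a mesothelial uroplakin, was at 11.09, 9.28, 9.24, 10.10 and 8.65 (SD 0.95). This list varied at least as much among the control arrays (SD of the list mean 0.51, against 0.32), and its difference of 0.58 from the other 4 arrays was 0.38 in the authors' normalized table. The endothelium list was at 0.27 on Irradiated 1, with 24 of 34 genes highest there, beside 32.9% of all genes. The difference from the other 4 arrays was 0.33, and 0.21 in the authors' normalized table. Ramp2, a co-receptor for adrenomedullin, was at 17.19, 16.66, 16.92, 16.38 and 16.05 (SD 0.45), and Egfl7 at 17.54, 17.52, 17.29, 17.31 and 17.35 (SD 0.12). Marco, a scavenger receptor of alveolar macrophages, was at 13.79, 11.01, 11.96, 11.50 and 12.28 (SD 1.06). It was the only 1 of the 20 alveolar macrophage genes set apart above on Irradiated 1, where 7 were highest and 6 lowest. The genes farthest above on this array were mostly dim. Tex45 was at 7.51, 4.66, 5.13, 4.92 and 4.47, and Has3, a hyaluronan synthase, at 7.37, 5.32, 4.60, 5.30 and 5.00. Nudt18, Tshb and Gsta2 followed, with Irradiated 1 between 3.34-fold (Gsta2) and 3.68-fold (Nudt18) above the nearest array.

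Fat genes set Irradiated 2 apart. The adipose tissue list was at -0.80, 1.22, 0.35, -0.34 and -0.43, and 27 of its 33 genes were highest on Irradiated 2, of which 12 were set apart. Ucp1, the uncoupling protein of brown fat, was at 5.40, 12.69, 5.45, 5.11 and 4.79 (SD 3.36), which placed Irradiated 2 151-fold above the nearest array. On the control arrays it ranged from 4.61 to 13.18. Pck1, an enzyme of glyceride and glucose synthesis, was at 7.47, 11.56, 9.08, 5.73 and 5.97 (SD 2.42). The hormone gene Adipoq was at 7.92, 12.32, 10.71, 9.03 and 8.10 (SD 1.87) and the lipid droplet gene Plin1 at 6.52, 9.97, 8.39, 6.77 and 5.90 (SD 1.66). Car3, a carbonic anhydrase of adipocytes, was at 10.16, 14.43, 12.48, 10.99 and 10.03 (SD 1.85), and Cfd, the complement protease adipsin, at 12.35, 15.76, 14.29, 12.81 and 11.81 (SD 1.61). Except for Ucp1, these genes were intermediate on Irradiated 3. Adipoq was between 11.48 and 12.90 on the control arrays. Scd1, a fatty acid desaturase that type II cells also express, varied less, at 14.85, 15.84, 15.64, 15.45 and 15.53 (SD 0.37).

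Interferon genes were high on the same array, and T cell genes on Irradiated 2 and 3. The interferon response list was at -0.35, 0.61, 0.19, -0.20 and -0.25, with 27 of 32 genes highest on Irradiated 2, beside 14.7% of all genes. Cxcl9, a chemokine induced by interferon gamma, was at 7.88, 12.70, 11.02, 9.63 and 8.82 (SD 1.89), and its second probe at 6.99, 11.37, 10.03, 8.53 and 7.84. Cxcl10 was at 10.33, 14.01, 12.65, 11.67 and 11.50 (SD 1.38), while the GTPase gene Igtp was at 12.85, 14.43, 14.20, 13.45 and 13.44 (SD 0.64). Among the control arrays Cxcl9 had an SD of 2.34. The T cell list was at -0.49, 0.48, 0.41, -0.14 and -0.26, and each of its 28 genes was highest on Irradiated 2 or 3, with 14 on each. Its farthest array was Irradiated 1, at -0.61 from the other 4, where 18 of the 28 genes were lowest, beside 18.4% of all genes. Icos, a co-stimulator of T cells, was at 8.97, 10.94, 10.31, 10.02 and 9.83 (SD 0.72). The eosinophil chemokine Ccl24 was at 7.21, 11.01, 7.82, 6.89 and 7.16 (SD 1.71), and Ccl17, which attracts Th2 cells, at 12.13, 14.51, 12.62, 11.81 and 11.82 (SD 1.13). There were 4 genes set apart below on Irradiated 2, a count that was 68 without Irradiated 1 and 35 with no filter on dim genes. The farthest was Cyp26b1, which degrades retinoic acid, at 11.92, 8.95, 12.20, 13.00 and 12.08 (SD 1.56). Cd200r2, Cxcr1, Nr1h5 and Trex2 were next below, by 1.88-fold (Trex2) to 3.63-fold (Cd200r2), and Cct6b and Gzmc were 6.10-fold and 4.63-fold above.

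Among lists with Irradiated 3 as the farthest array, the differences from the other 4 were largest for mast cell, neutrophil and immediate early genes. Mast cell and eosinophil genes were at -0.43, -0.12, 0.56, 0.11 and -0.11, and 5 of 14 genes kept were highest on Irradiated 3, of which 4 were set apart. The difference of Irradiated 3 from the other 4 arrays was 0.70 in the list mean, 0.32 in the list median and 0.22 in the authors' normalized table. The mast cell protease gene Mcpt4 was at 7.46, 8.54, 10.53, 9.51 and 8.19 (SD 1.19) and Cpa3, a mast cell carboxypeptidase, at 6.44, 8.03, 9.36, 8.01 and 6.996 (SD 1.12). Hdc, the enzyme that makes histamine, was highest on Irradiated 5 instead, at 14.29, 14.40, 14.82, 14.87 and 15.02 (SD 0.32). Immediate early genes, which are induced within minutes of a stimulus, were at -0.27, -0.16, 0.42, 0.01 and -0.01, with 20 of 35 highest on Irradiated 3, beside 17.2% of all genes. The difference from the other 4 arrays was 0.52, and 0.29 in the authors' normalized table. Arc was at 7.76, 8.84, 10.10, 8.37 and 8.67 (SD 0.86). The neutrophil list, at 0.46 on Irradiated 3, differed there from the other 4 arrays by 0.57, and by 0.25 in the authors' normalized table. Only 10 of its 27 genes were highest on Irradiated 3, with 9 highest on Irradiated 1, and the SD of the list mean was 0.27, against 0.34 among the control arrays. It held genes that ran in opposite directions. S100a9, a calcium-binding protein of neutrophil cytosol, was at 16.97, 15.75, 16.74, 14.82 and 15.01 (SD 0.98), whereas Cd177, a neutrophil surface antigen, was at 8.17, 10.09, 11.33, 11.56 and 11.55 (SD 1.46) and Ltf, lactoferrin, which airway glands also make, at 11.36, 13.53, 14.38, 15.04 and 15.17 (SD 1.56). Of the 14 genes set apart below on Irradiated 3, Tbx22 was the farthest, at 10.05, 9.54, 6.55, 11.68 and 11.63 (SD 2.10). Dnajb8, Dsg1c, Krtap5-1 and Shc4 were next, by 2.40-fold (Shc4) to 2.88-fold (Dnajb8), while Ntm, Rtp2, Lhfpl5, Syt10 and Them6 were farthest above, by 3.50-fold (Them6) to 4.11-fold (Ntm).

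On Irradiated 4, 36 genes were set apart above and 12 below, but scaling to the 75th percentile gave 96 and 0, and the authors' normalized table gave 1 and 31, so that this balance has no settled direction. Dmbt1, a mucosal scavenger receptor gene, was at 5.83, 7.62, 10.25, 11.76 and 10.11 (SD 2.36). Cox17, a copper chaperone of mitochondria, was at 6.90, 6.75, 7.15, 9.19 and 7.03 (SD 1.01), and it ranged from 6.17 to 9.02 on the control arrays. Cbx7, Ctxn2 and Tmem72 were 3.36-fold, 3.04-fold and 2.87-fold above the nearest array. Kl was the farthest below, at 7.37, 5.58, 4.73, 2.67 and 6.23, and Prima1, Lancl3 and Capn13 were also below, by 2.31-fold (Capn13) to 2.83-fold (Prima1). The lowest signal called well above background was 2.54 on this array and 4.36 to 5.09 on the other 4, and the part of this lower limit in these differences was not tested.

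Clock genes set Irradiated 5 apart. The circadian list was at 0.35, -0.10, 0.18, 0.10 and -0.53, with 14 of 21 genes kept lowest on Irradiated 5, beside 17.9% of all genes, and 6 set apart below. The difference of Irradiated 5 from the other 4 arrays was -0.66, and -0.31 in the authors' normalized table. Dbp, a D-box factor driven by the clock, was at 16.08, 15.03, 15.55, 15.39 and 12.21 (SD 1.53), 7.09-fold below the nearest array. Its second probe was at 15.75, 14.88, 15.22, 15.37 and 12.35. The repressor gene Per2 was at 11.28, 10.43, 10.82, 10.47 and 9.13 (SD 0.80), and Per3 at 9.31, 8.31, 8.32, 9.05 and 7.22 (SD 0.81). Hlf, related to Dbp, was at 11.95, 11.20, 11.57, 11.57 and 9.89 (SD 0.80), Ciart, a repressor of the clock, at 10.01, 9.31, 10.22, 9.87 and 8.16 (SD 0.83), and the nuclear receptor gene Nr1d2 at 12.42, 11.59, 12.00, 11.89 and 10.55 (SD 0.70). Irradiated 5 was set apart below for all of these. In the authors' normalized table only 1 of all genes was set apart below on this array, so that most of these calls were lost there.

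The activator ran the opposite way. Arntl was at 8.45, 9.60, 9.28, 9.51 and 11.90 (SD 1.28), 4.92-fold higher on Irradiated 5 than on the nearest array. Nfil3, a repressor at D-boxes, was at 10.60, 11.40, 11.81, 11.31 and 12.38 (SD 0.66), and Npas2, a partner of Arntl that was well above background on Irradiated 2, 4 and 5, was at 6.53 on Irradiated 5 and at 4.11 to 4.60 on the others. Clock varied little, at 10.79, 10.85, 10.60, 10.46 and 10.94 (SD 0.20). Irradiated 1 had the highest Dbp and the lowest Arntl. The control arrays were also spread, from 12.21 to 15.96 for Dbp and from 8.72 to 12.37 for Arntl, and the hour of sampling is not given in the labels. Outside the clock list, Adm, Gdf11, Spon2 and Liph were farthest above on Irradiated 5, by 2.24-fold (Liph) to 2.79-fold (Adm), and AY074887, Ccny, Vmn1r195 and Il12rb2 farthest below, by 2.53-fold (Il12rb2) to 2.89-fold (AY074887).

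**Figure D4:**
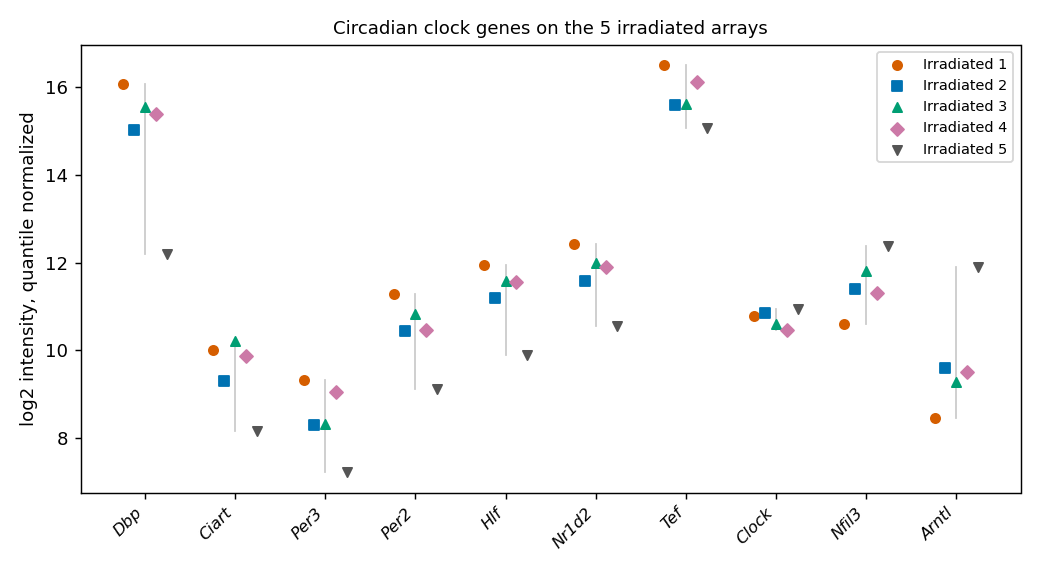
Log2 intensity (vertical axis) of 10 circadian clock genes on the 5 irradiated arrays (colours and symbols), with a grey line over the range of each gene. Irradiated 5 is lowest for the 7 genes on the left, such as Dbp (12.21), and highest for Clock, Nfil3 and Arntl (11.90) on the right.

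The promoters of Ciart, Per3 and Arntl are shown because these genes stood apart on Irradiated 5 in opposite directions and their windows hold different sites of clock factors. The windows are of the same kind, on the minus strand of chr3:95882179-95882478 for Ciart, the minus strand of chr4:151044616-151044915 for Per3 and the plus strand of chr7:113207261-113207560 for Arntl, which has a second annotated start. Capitals mark the E-box CACGTG bound by Arntl and Clock (3 in Ciart), the D-box TTATGTAA bound by Dbp and Hlf (2 in Per3) and the element TAGGTCA bound by ROR and Nr1d receptors (1 in Arntl). The window of the second Arntl start, chr7:113207215-113207514, held no TAGGTCA.
Ciart: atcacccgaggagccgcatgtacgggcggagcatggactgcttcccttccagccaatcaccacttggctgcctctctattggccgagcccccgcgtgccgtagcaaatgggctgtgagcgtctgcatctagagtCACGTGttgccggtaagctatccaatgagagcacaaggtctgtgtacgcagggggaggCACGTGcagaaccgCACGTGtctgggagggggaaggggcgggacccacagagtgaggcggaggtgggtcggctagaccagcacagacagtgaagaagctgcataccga
Per3: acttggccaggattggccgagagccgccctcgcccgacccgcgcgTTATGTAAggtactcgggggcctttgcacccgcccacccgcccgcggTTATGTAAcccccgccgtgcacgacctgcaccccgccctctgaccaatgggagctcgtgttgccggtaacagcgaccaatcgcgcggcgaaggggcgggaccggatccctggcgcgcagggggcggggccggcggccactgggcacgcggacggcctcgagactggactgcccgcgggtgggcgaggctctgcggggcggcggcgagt
Arntl: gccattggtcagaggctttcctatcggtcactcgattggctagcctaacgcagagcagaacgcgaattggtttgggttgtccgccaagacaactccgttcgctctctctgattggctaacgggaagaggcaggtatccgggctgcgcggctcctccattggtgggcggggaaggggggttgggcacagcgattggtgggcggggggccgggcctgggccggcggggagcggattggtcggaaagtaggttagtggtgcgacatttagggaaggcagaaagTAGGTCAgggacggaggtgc
The E-box was found in 7.15% of all 32851 promoters, the D-box, searched as TTATGTAA or TTACGTAA, in 1.06% and TAGGTCA in 2.61%, on both strands. Of the 17 kept clock genes with a promoter in the table, 5 held the E-box (Bhlhe41, Ciart, Cry1, Per1 and Tef), 1 the D-box and 2 TAGGTCA (Arntl and Nfil3). A gene was again counted if any of its windows held the letters, whereas the shares of all promoters count each promoter singly. None of these letters was in the window of Dbp.

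In some lists, a further pattern set Irradiated 1 and 2 on one side and Irradiated 4 and 5 on the other. Both of the first were above both of the last for 3874 genes (25.1%), and the reverse held for 2706 (17.5%). Over all genes, Irradiated 2 was farther from Irradiated 1 than from Irradiated 3 and 5. Its median absolute log2 difference was 0.2223 from Irradiated 1, and 0.1935, 0.2309 and 0.2152 from Irradiated 3, 4 and 5. How often chance gives such an order was not tested. Cell division genes lay mostly on the side of Irradiated 1 and 2. Of 32 mitosis genes kept, 30 were higher on Irradiated 1 and 2, and the list was at 0.37, 0.48, -0.10, -0.43 and -0.32. The proliferation marker Mki67 was at 12.24, 12.68, 11.88, 11.72 and 11.78 (SD 0.40) and Kif20a, a kinesin of cytokinesis, at 9.81, 9.50, 9.03, 8.23 and 8.23 (SD 0.72). Of 31 DNA replication genes, 26 followed the same order, among them Rrm2, a subunit of ribonucleotide reductase, at 11.54, 11.84, 11.44, 10.65 and 10.50 (SD 0.59). In the authors' normalized table, the difference of Irradiated 5 from the other 4 arrays in this list was -0.0336, against -0.38 here. No gene of either list had an SD of at least 1.

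Targets of p53, the factor activated by DNA damage, ran with cell division. Of 28 genes, 18 were higher on Irradiated 1 and 2, and the list was at 0.33, 0.14, -0.01, -0.21 and -0.24. Irradiated 1 differed from the other 4 arrays by 0.41, and by 0.27 in the authors' normalized table. Among the control arrays the SD of the list mean was 0.03, against 0.24 here. Cdkn1a, encoding the cell cycle inhibitor p21, was at 13.94, 14.33, 13.65, 13.01 and 13.25 (SD 0.53), and Bax, a mediator of apoptosis, at 13.52, 13.48, 12.38, 12.37 and 12.67 (SD 0.58). Eda2r, a death receptor of the TNF receptor family, was at 6.58, 6.14, 5.21, 4.87 and 5.26 (SD 0.72). Of 18 red cell genes kept, 11 were also lower on Irradiated 4 and 5 than on Irradiated 1 and 2. The SD of the list mean was 0.34, and it was 0.34 among the control arrays as well. The list was at 0.35, 0.11, 0.26, -0.41 and -0.30, with Slc4a1, the band 3 anion exchanger, at 10.33, 9.64, 9.47, 8.26 and 8.30 (SD 0.90) and Alas2, the erythroid enzyme that starts haem synthesis, at 13.86, 13.89, 13.97, 12.39 and 12.59 (SD 0.78). Hba-a1 was at 18.77, 18.61, 18.86, 17.37 and 17.58, but its near-identical copy Hba-a2 at 19.12, 19.12, 19.16, 18.86 and 19.08, so that their values cannot be assigned to either gene with certainty. Fabp1, a fatty acid binding protein of liver and intestine, was at 11.72, 10.66, 8.26, 7.45 and 8.31 (SD 1.82). Rhox3c, a homeobox gene, was higher on Irradiated 4 and 5, at 6.67, 5.15, 4.84, 8.81 and 8.83 (SD 1.92).

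Of 33 macrophage activation genes, 16 ran the other way, higher on both Irradiated 4 and 5, beside 17.5% of all genes. The list was at -0.64, 0.05, 0.13, 0.32 and 0.14, so that Irradiated 2 did not pair with Irradiated 1. Spp1, encoding osteopontin, was at 10.91, 11.53, 13.93, 14.60 and 14.13 (SD 1.67), Gpnmb, a glycoprotein of lipid-laden macrophages, at 10.84, 11.28, 11.78, 14.43 and 13.55 (SD 1.54) and the lipid receptor gene Trem2 at 12.09, 12.47, 13.12, 13.93 and 13.52 (SD 0.75). On the control arrays these ranged from 10.17 to 11.33, 9.51 to 10.24 and 10.75 to 11.78. Dlk1, a Notch-related gene of progenitor cells, was at 5.74, 7.62, 10.64, 10.70 and 11.54 (SD 2.46), and Kng1, encoding the kinin precursor kininogen, at 8.26, 10.19, 11.93, 12.85 and 13.06 (SD 2.02). Irradiated 3 lay with Irradiated 4 and 5 for Spp1 and Dlk1 and with Irradiated 1 and 2 for Gpnmb.

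**Figure D5:**
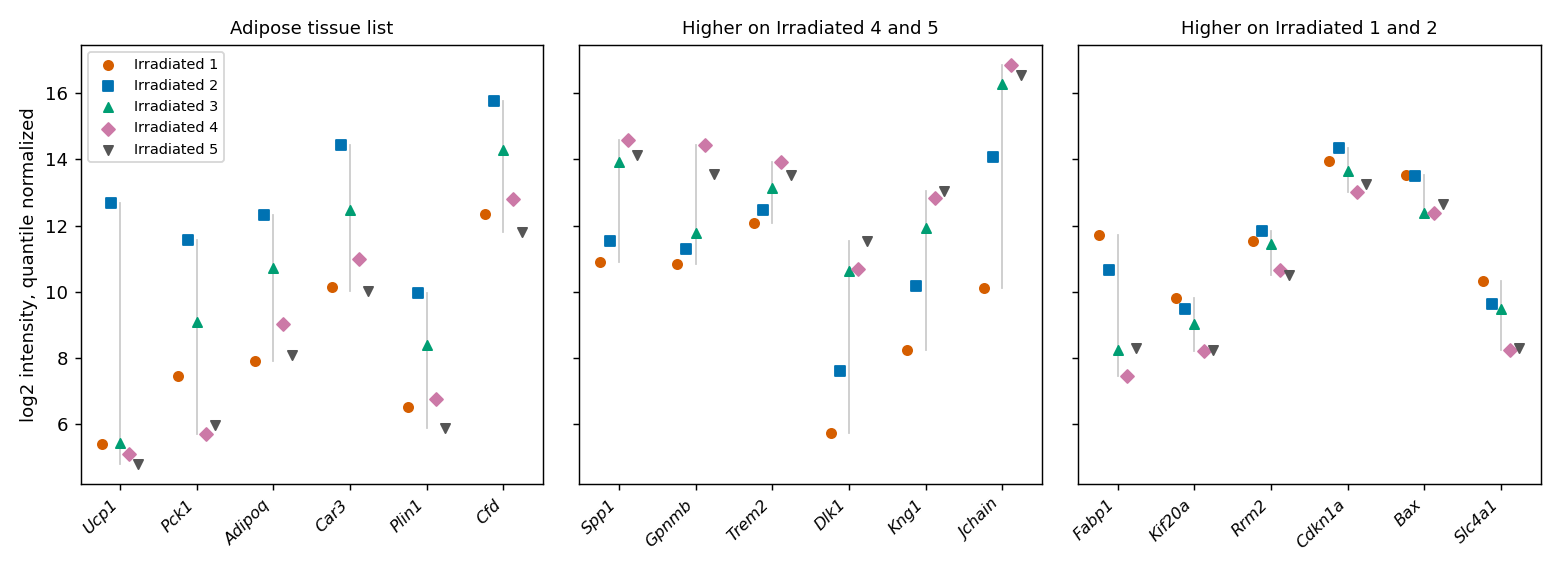
Log2 intensity (vertical axis) of genes of the adipose tissue list (left), of genes higher on Irradiated 4 and 5 (middle) and of genes higher on Irradiated 1 and 2 (right), by array (colours and symbols), with a grey line over the range of each gene. Ucp1 stands at 12.69 on Irradiated 2 only, and Spp1 reaches 14.60 on Irradiated 4 against 10.91 on Irradiated 1.

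Housekeeping genes had small SDs. The 40 ribosomal protein genes had a median SD of 0.13 and the 37 oxidative phosphorylation genes one of 0.13, against 0.22 over all genes, which were not matched for brightness. The ribosomal protein genes still shifted together by small amounts. Of the 40, 25 were highest on Irradiated 1, beside 32.9% of all genes, and 23 were lowest on Irradiated 4, beside 27.8%. The 25 type II alveolar genes had a median SD of 0.31, above that of all genes. Their list mean stayed between -0.06 and 0.06, but members offset each other in it. Of the 25, 15 were highest on Irradiated 1, beside 32.9% of all genes, and 9 were lowest on Irradiated 4, beside 27.8%. Dlk1, also of this list, was at 5.74 on Irradiated 1 against its mean of 9.25. Among the steadiest of the brightest genes were Atp5j2 (SD 0.01), a subunit of ATP synthase, Taldo1 (SD 0.02), a transaldolase, Actr1a (SD 0.02), a dynactin subunit, and Lemd2 (SD 0.02) of the inner nuclear membrane. Atp5j2 was at 15.90, 15.89, 15.88, 15.91 and 15.90. The beta actin gene Actb, also at the top of the scale, was at 19.09, 19.09, 18.99, 18.78 and 19.04 (SD 0.13).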

How the data were processed

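The samples were 9 single-colour (Cy5) Agilent arrays of pooled mouse lung RNA, of which the 5 irradiated arrays were described. The authors deposited the scanner output, in which the values used are the processed signal intensity of each spot, background-subtracted by the scanner software. Their own normalized table (quantile, log2 of the median signal minus local background, as deposited, with 0.093% to 12.8% of values empty per array) was used as an alternative. No column holds a comparison, and 0 columns of samples were left unmapped. The written spot numbers did not match this deposited file (rank correlation -0.00591 to 0.00458), whereas spots numbered by position did (1 on all 9 arrays), so that positions were used.

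Control spots and spots flagged as outliers were left out, spots of a probe were averaged, and log2 intensities were quantile-normalized over the 5 arrays with limma 3.58.1 (R 4.3.3, data.table, version 1.17.8). RefSeq accessions gave a symbol for 26055 of 39429 probes (66.1%). The brightest probe stood for a gene, and genes well above background on all 5 arrays were kept. No spot was saturated. Summaries were made in Python 3.11.15 with numpy 2.4.6 and pandas 2.3.3, figures with matplotlib 3.10.9. Steps were tested on simulated data. The number of arrays limits the precision, and the replicate numbers of the labels only name the arrays.

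The arrays, gene lists and limits were chosen with earlier results of these data known. Named by rule were the 30 genes with the largest SD, the 5 farthest above and below on each array, the 2 brightest and 2 most variable genes of a list with its members set apart or dim on some arrays, and the 5 steadiest of the brightest genes. A few of these are not reported here. Other named genes were chosen after their values were seen. Alternatives were scaling to the 75th percentile, another background correction, the authors' table, other filters, the mean of probes, a larger gap, list medians and leaving out each array.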

Additional observations from a re-analysis of the deposited data

Results flagged for a closer look

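In a set of 5 arrays, an array was singled out if its gap to the nearest other was more than 0.71 of the whole range, which chance does for about 1 in 20 sets. Genes named because 1 array stood apart are over-represented here by construction. The lists, 24 of the 43, were also chosen with earlier results of these data known. The rate of 1 in 20 is thus no measure of chance for either. Of 24 lists, 3 met this limit, all with Irradiated 1 below: cardiac muscle with 0.775, airway secretory with 0.798 and macrophage activation with 0.722 of the range. Of 125 genes, 30 met it. Irradiated 1 was below for Myh6 (0.927), Nppa (0.722), Myl7 (0.846), Myl4 (0.831), Tnnt2 (0.833), Ttn (0.761) and Actc1 (0.789) of cardiac muscle, for Bpifa1 (0.810), Reg3g (0.831), Itln1 (0.768), Bpifb1 (0.8004), Muc5b (0.861) and Scgb3a1 (0.823) of the airways, and for Gp2 (0.768), Ccl2 (0.722), H2-Ab1 (0.788), Il6 (0.721) and Lrg1 (0.919). It was above for Myh7 (0.763), Has3 (0.740), Tex45 (0.784) and Gsta2 (0.822). Irradiated 2 was above for Ucp1 (0.917), Ccl24 (0.774), Gzmc (0.737) and Cct6b (0.864) and below for Cyp26b1 (0.733). Irradiated 4 was above for Cox17 (0.837) and below for Hba-a2 (0.730), and Irradiated 5 was below for Dbp (0.730). Hba-a2 lay at the top of the scale with a range of only 0.30, and its values cannot be told from those of Hba-a1 with certainty. Of 4 measures of the arrays themselves, 2 met the limit: the share of spots well above background on Irradiated 4 (0.760) and the 75th percentile of the signal on Irradiated 3 (0.828), both above the others.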

How the results depend on the processing

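No paired analysis was possible because no groups were compared. Of 312 values of list deviations under the alternatives, 297 differed from the reported ones by less than the SD of the list mean over the 5 arrays, 12 by more and 3 took the opposite sign. The deviation here is the most extreme array minus the mean of the other 4. Scaling to the 75th percentile gave -0.0397 for type II alveolar and 0.0458 for reference genes, so that these lists have no settled direction, and counts above or below of 36 above on Irradiated 1, 33 below on Irradiated 3, and 96 above and 0 below on Irradiated 4. With normexp background correction, 116 genes had an SD of at least 1, 288 were split, 27 were above on Irradiated 1, 1 below on Irradiated 2, 13 above and 5 below on Irradiated 3, 16 above and 0 below on Irradiated 4, and 5 above and 12 below on Irradiated 5. In the authors' table, where the median of all genes was shifted by -0.06, 0.18, -0.14, -0.14 and 0.14 on Irradiated 1 to 5, 96 genes had such an SD, 3 were above on Irradiated 1, 1 below on Irradiated 2, 5 above on Irradiated 3, 1 above and 31 below on Irradiated 4 and 1 below on Irradiated 5, and deviations were -0.0336 for DNA replication, 0.22 for mast cells and eosinophils, 0.25 for neutrophils, -0.31 for the clock, 0.12 for type II, -0.18 for oxidative phosphorylation and -0.17 for reference genes. Requiring 3 arrays tested more genes (16208) and gave 376 genes with such an SD and 755 split, with 308 below on Irradiated 1, 11 below on Irradiated 2, 48 above and 24 below on Irradiated 3, and 21 above and 52 below on Irradiated 5. No filter (19736 genes) gave 822 and 1766, with 277 above and 382 below on Irradiated 1, 195 and 35 on Irradiated 2, 186 and 39 on Irradiated 3, 138 and 29 on Irradiated 4, and 153 and 81 on Irradiated 5. The mean of probes gave 9 below on Irradiated 3 and -0.0902 for reference genes. A gap of 2 log2 units left 2 above and 58 below on Irradiated 1, 8 and 1 on Irradiated 2, and 1 and 1 on each of Irradiated 3, 4 and 5. List medians gave -0.73 for airway secretory, -0.32 for plasma cells, 0.32 for mast cells and eosinophils, -0.0451 for type II and -0.0525 for reference genes. Without 1 array each, where fewer arrays had to be cleared, 129 to 245 genes had an SD of at least 1 (129 without Irradiated 1) and 404 to 621 were split, and the counts above and below ranged over 61 to 99 and 192 to 256 on Irradiated 1, 55 to 84 and 5 to 68 on Irradiated 2, 24 to 49 and 17 to 33 on Irradiated 3, 45 to 112 and 19 to 67 on Irradiated 4, and 13 to 37 and 36 to 72 on Irradiated 5. An alternative chosen after seeing the data, filtering probes before the brightest was taken (15434 genes), moved no list by as much as that SD and no count by over 1.5 times. The cause of the differences was not tested otherwise. Of the 297, 7 still differed by over 1.5 times. These were 0.29 for immediate early, 0.21 for endothelium, 0.38 for mesothelium and 0.27 for p53 targets in the authors' table, -0.64 for chemokines by list median, -0.0635 for ribosomal proteins at the 75th percentile and 0.0426 for type II with normexp. The lowest signal called well above background differed between arrays, and its part in the counts was not tested.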
